A study of Mus musculus with 20 samples.

Results

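Mitochondria keep a small genome of their own, and the mRNAs read from it code only for core subunits of the respiratory chain and of ATP synthase. This report describes 9 of these mRNAs, mt-Nd1, mt-Nd2, mt-Co1, mt-Co2, mt-Atp6, mt-Co3, mt-Nd4, mt-Nd5 and mt-Cytb, in cultured ovarian surface epithelial (OSE) cells of the mouse, with and without the estrogen estradiol (E2). The genes were taken by name, and all 9 were found among the 14299 genes measured. The rule that chose them used no measured value, but earlier results of these data were known when it was set. They are 9 of the 13 protein-coding genes of the mitochondrial genome, and they held 2.33% of all reads and 95.8% of the reads of those 13 genes.

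The subunits belong to 4 enzyme complexes of the inner mitochondrial membrane. mt-Nd1, mt-Nd2, mt-Nd4 and mt-Nd5 code for subunits of complex I, which takes electrons from NADH, and mt-Cytb codes for cytochrome b of complex III, which passes them on to cytochrome c. mt-Co1, mt-Co2 and mt-Co3 code for the catalytic core of complex IV, which hands the electrons to oxygen, and mt-Atp6 codes for a subunit of the proton channel of ATP synthase. The mitochondrial genome is transcribed as long precursors that are cut mostly at the transfer RNAs between coding genes, and most mRNAs are then polyadenylated. Differences among its mRNAs therefore arise largely after transcription. The mitochondrial genome also holds mt-Nd3, mt-Nd4l, mt-Nd6 and mt-Atp8, which code for further subunits of these complexes. mt-Atp8 (chrM:7766-7969) overlaps mt-Atp6 (chrM:7927-8607), and mt-Nd4l (chrM:9877-10173) overlaps mt-Nd4 (chrM:10167-11544), so no transfer RNA parts these pairs. All remaining subunits are read from nuclear genes.

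Primary OSE cells isolated from mouse ovaries were held for 48 hours in hormone-free medium and then grown for 15 days with 100 nM E2 or, in control dishes, with the ethanol vehicle at 0.0002%. Cells of either condition were loaded as 1 suspension into a Fluidigm C1 circuit, a chip whose capture sites hold single cells, and each column of the chip gave 1 cDNA library read from the 3′ ends of transcripts. The libraries are the samples. Since all libraries of a condition came from the same suspension, p-values measure only how these libraries vary, and E2 and suspension cannot be told apart. Control cells filled columns 1 to 10 and E2-treated cells columns 11 to 20, of which column 13 was not analysed here. This left 329 control cells in 10 libraries of 3867791 to 5078340 reads and 260 E2-treated cells in 9 libraries of 2693258 to 4037847 reads. No capture site occurred more than once among the 589 cells. The study had removed cells with a high share of mitochondrial reads, which limits the range of the shares given here.

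Cells were compared within the clusters of the deposited labels, named as in the study. Responsive cells were 203 control and 218 E2-treated cells, and cluster 1 was 126 control and 42 E2-treated cells. Reads per cell differed between these groups, with medians of 143233 in responsive control cells, 117809 in responsive E2-treated cells, 112126 in cluster 1 control cells and 87632 in cluster 1 E2-treated cells. Reads were summed over the cells of 1 library and 1 cluster wherever at least 3 cells were present, and levels are given as CPM, the reads per 1000000 reads of such a sum after TMM scaling. There were 10 and 9 sums of responsive cells, of 15 to 30 cells each. Cluster 1 had 10 control sums of 8 to 18 cells and only 7 E2 sums of 3 to 9 cells, which together held 39 cells and 233995 to 771505 reads each. Of 14 markers of OSE, 11 were measured and all 11 had reads in each group, with summed levels of 4746 to 8557 CPM.

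The place of reads between mitochondrial genes and their nuclear copies bears on every value of mt-Co1. The nuclear genome holds stretches of mitochondrial DNA, and the reference transcripts of GRCm38 (GENCODE release 21) include 11 pseudogenes that align to 1 of the 13 genes over at least 200 bases with at least 95% identity. One of them, Gm29216 (chr1:24615706-24616197, minus strand, an unprocessed pseudogene of 492 bases), matches the last 483 bases of mt-Co1 (chrM:5328-6872, plus strand) with 1 mismatch. That mismatch is A1066T, with positions counted from 1 at the 5′ end of mt-Co1 and the base of mt-Co1 first, and the 479 bases from there to the 3′ end are the same in both. The first pair of sequences shows the only part of the alignment in which they differ, with the differing base in capitals, at chrM:6390-6423 on the plus strand and chr1:24616155-24616188 on the minus strand. The second pair shows the 3′ ends, from which this protocol reads, with the stop codon in capitals, at chrM:6813-6872 and chr1:24615706-24615765.
mt-Co1, around the difference: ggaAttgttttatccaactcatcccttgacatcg
Gm29216, around the difference: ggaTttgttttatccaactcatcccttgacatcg
mt-Co1, 3′ end: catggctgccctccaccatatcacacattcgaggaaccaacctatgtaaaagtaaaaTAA
Gm29216, 3′ end: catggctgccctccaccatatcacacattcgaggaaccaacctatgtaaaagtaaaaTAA

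The deposited counts placed 811653 reads on Gm29216 and 53679 on mt-Co1, so that 93.8% of the reads of this pair stood under the name of the pseudogene. Gm29216 had reads in 589 of 589 cells and had more reads than every other gene of the table except 1, whereas mt-Co1 was at rank 205. The estimates of mt-Co1 were not exactly whole, with no tolerance allowed, in any of the 582 cells with a read of it, which is how reads that fit several transcripts appear in estimated counts. Levels printed here for mt-Co1 are therefore levels of the reads assigned to it, and Gm29216 is given beside it.

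The other copies held few reads. Gm28437 is identical to mt-Co3 over 783 bases and lacks only the last base, T, yet it held 3.2 reads against 521931 on mt-Co3, which was at rank 5 of all genes by reads. The 3′ ends of both are shown, at chrM:9331-9390 on the plus strand and chr1:24613189-24613248 on the minus strand, with the last base of mt-Co3 in capitals. This base begins a stop codon that polyadenylation completes, and mt-Nd4 and mt-Cytb also end in such a single base.
mt-Co3, 3′ end: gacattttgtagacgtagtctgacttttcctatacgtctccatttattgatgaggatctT
Gm28437, 3′ end: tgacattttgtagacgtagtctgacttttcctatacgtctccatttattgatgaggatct
mt-Cytb, 3′ end (chrM:15229-15288, plus strand): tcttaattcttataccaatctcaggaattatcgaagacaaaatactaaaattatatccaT
mt-Co2, 3′ end (chrM:7637-7696, plus strand): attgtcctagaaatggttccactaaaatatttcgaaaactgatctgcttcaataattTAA
mt-Cytb and mt-Co2 are shown because they carry the differences described further on. Of the reads of a pair, Gm10925 took 0.13% from mt-Atp6, Gm13341 took 0.039% from mt-Co2, Gm13339 took 0.35% from mt-Nd2 and Gm4076 took 0.034% from mt-Nd5. A second copy of mt-Co1, Gm13340, took 0.942%. Among the genes outside the 9, Gm28438 held 9.22% of its pair with mt-Nd3 and Gm10222 held 17.1% of its pair with mt-Nd4l. The copies Gm28661 of mt-Co2 and Gm28439 of mt-Nd4, were not analysed here.

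**Figure D1:**
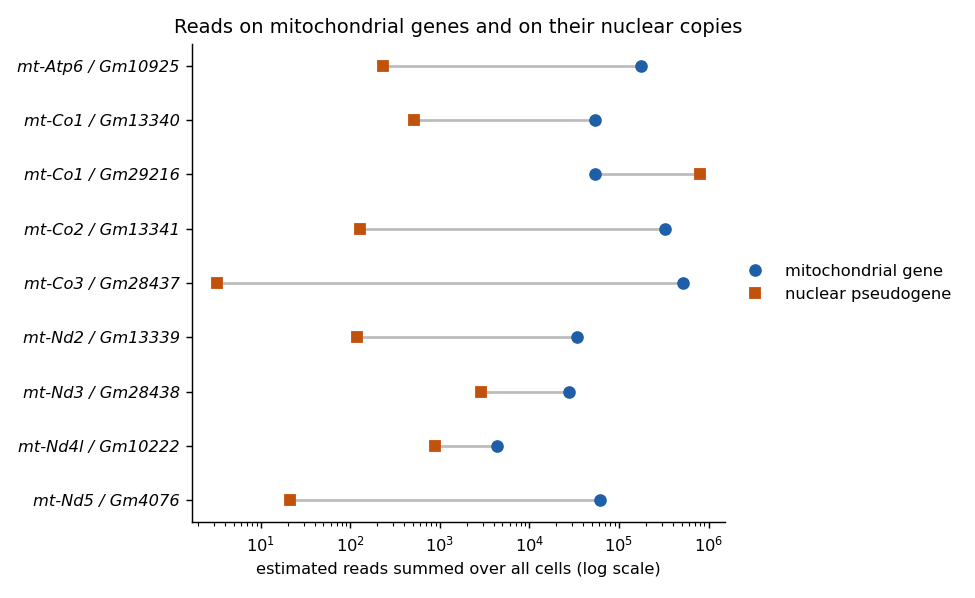
Estimated reads summed over 589 cells, on a log scale, for each mitochondrial gene (circles) and each near-identical nuclear pseudogene that was measured (squares). In 8 of the 9 pairs the mitochondrial gene holds more reads, and in the pair of mt-Co1 and Gm29216 the pseudogene holds 811653 reads against 53679.

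All 9 mRNAs were read in nearly every cell. mt-Co2, mt-Atp6, mt-Co3, mt-Nd4 and mt-Cytb had reads in 589 cells, mt-Nd1 in 588, mt-Nd5 in 587, mt-Co1 in 582 and mt-Nd2 in 581. The median cell had 812 reads of mt-Co3, 510 of mt-Co2, 390 of mt-Nd4, 329 of mt-Cytb and 280 of mt-Atp6, but only 47 of mt-Nd2. Per kilobase of transcript, responsive control cells held 8248 ± 772 CPM of mt-Co3 (SD, n = 10), 5890 ± 1174 of mt-Co2, 3486 ± 639 of mt-Atp6, 2365 ± 371 of mt-Nd4, 2110 ± 293 of mt-Cytb and 1036 ± 164 of mt-Nd1. mt-Nd2 (462 ± 90.2), mt-Nd5 (439 ± 83.4) and mt-Co1 (437 ± 83.2) followed at the lower end. A protocol that reads 3′ ends does not gain reads with length, so the scale per kilobase favours short transcripts, and the place of mt-Co1 would change with the reads on Gm29216, which stood at 19583 ± 2461 CPM per kilobase.

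In this order, neighbours whose means lay closer together than the sum of their SDs were mt-Nd4 and mt-Cytb, and the 3 lowest genes among themselves. mt-Co3, mt-Co2 and mt-Nd1 held ranks 1, 2 and 6 in all 4 groups. In cluster 1 E2-treated cells mt-Co3 (12973 ± 2455 CPM per kilobase) and mt-Co2 (10974 ± 3651) lay within their summed SDs. So did mt-Nd4 (2692 ± 629) and mt-Nd1 (1602 ± 707) there. mt-Cytb held rank 5 in responsive control cells, rank 4 in responsive E2-treated cells and in cluster 1 control cells, and rank 3 in cluster 1 E2-treated cells, where it stood at 4501 ± 1717 CPM per kilobase (n = 7) beside mt-Atp6 at 4384 ± 1361. mt-Cytb lay within the summed SDs of mt-Nd4 in all 4 groups. It also lay within those of mt-Atp6 in the groups where it held rank 4 and in cluster 1 E2-treated cells. In responsive control cells it lay below mt-Atp6 by more than that. For 8 of the 9 the coefficient of variation between sums was largest in cluster 1 E2-treated cells, as for mt-Nd5 with 53.0% against 14.5% in cluster 1 control cells. The exception was mt-Nd2, with 25.8% there and 29.2% in cluster 1 control cells.

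The E2 library of column 15 stood apart from the others over the whole table, and this was seen after the values of mt-Cytb had been examined. In its 24 responsive cells, 639 of 1816 genes above 100 CPM (35.2%) differed more than 2-fold from the median of the other libraries of its group. In the other 18 libraries this number was 14 to 77 genes. Among the mitochondrial mRNAs it moved in both directions. mt-Cytb stood at 5449 CPM in its responsive cells, where the other 8 E2 libraries lay between 2601 and 3562, and mt-Atp6 stood at 1388 CPM, below their lowest value of 2070. mt-Nd3, a complex I subunit outside the 9, was nearly missing, at 10.7 CPM against at least 212 in each of the others. Gm29216 was lowest there, at 7598 CPM against 10716 to 14356. The 3 cluster 1 cells of column 15 had the same pattern, with mt-Cytb at 9278 CPM against 3722 to 5910, mt-Co2 at 11951 against 4328 to 9183 and mt-Atp6 at 1334 against 2479 to 4255. The summed level of 7 measured markers of stromal fibroblasts was also highest in this library, 4263 CPM in responsive and 8569 CPM in cluster 1 cells, where the median E2 sum had 1900 and 3640 CPM. Their part in the levels of the mitochondrial mRNAs was not tested. The fits for E2 are therefore given with and without column 15.

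**Figure D2:**
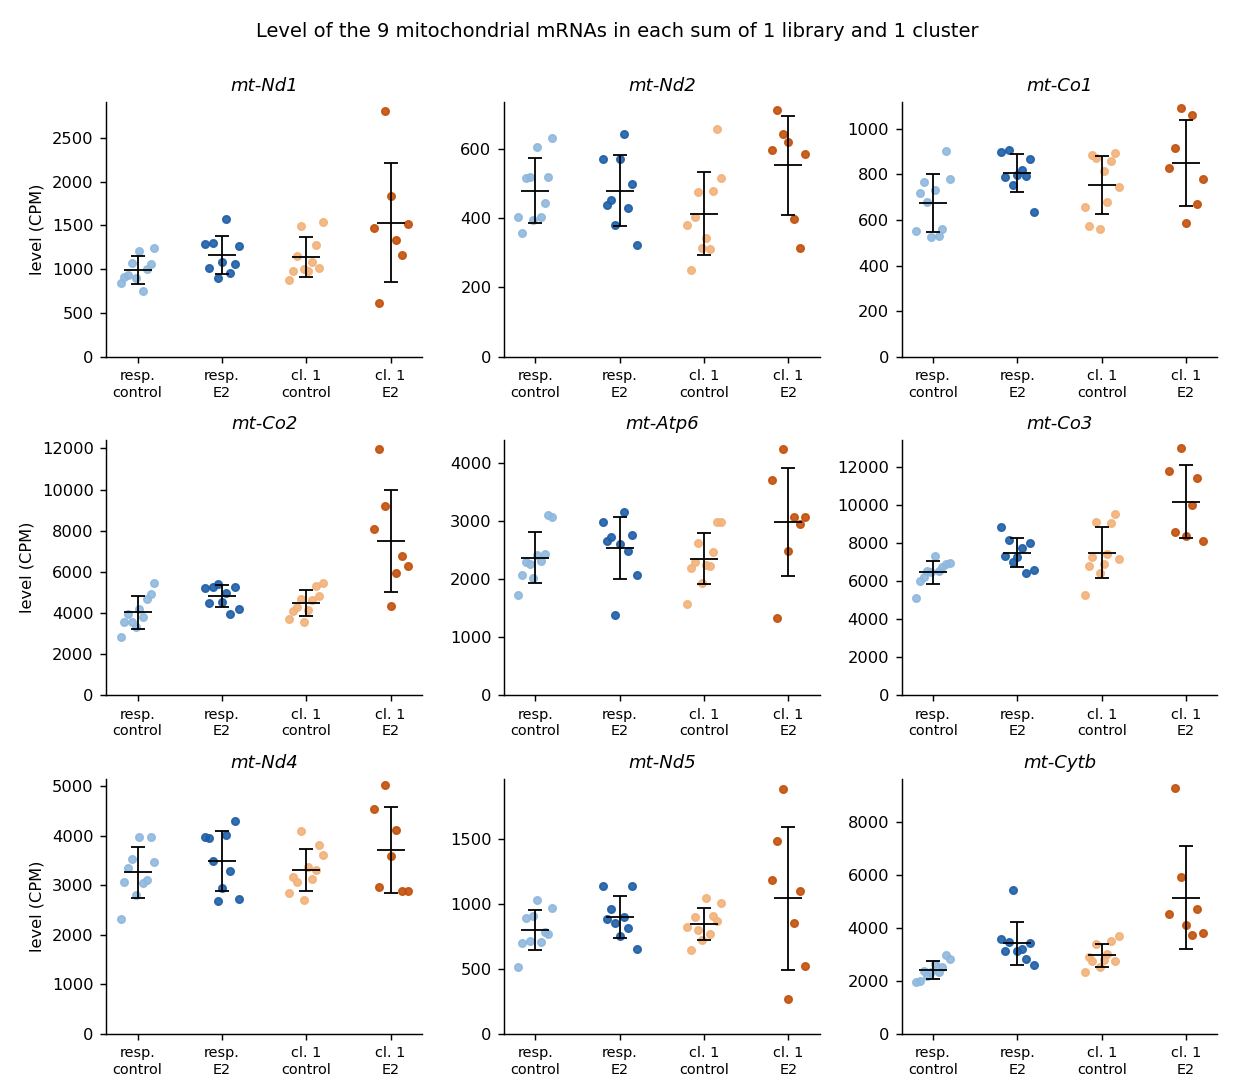
Level in CPM of each of the 9 mRNAs (panels, linear axes from 0) in every sum of 1 library and 1 cluster, for responsive (resp.) and cluster 1 (cl. 1) cells of both conditions, with the mean as a bar and the SD as whiskers. For mt-Cytb the 7 E2 sums of cluster 1 lie between 3722 and 9278 CPM, above all 10 control sums of that cluster, and the highest is that of column 15.

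The first comparison asks whether E2 changed these mRNAs in the responsive cells. None of the 9 passed the threshold for a called gene, an adjusted p below 0.05 together with an absolute log2 fold change above 0.5, in edgeR's quasi-likelihood test over 10265 genes, of which 141 (1.37%) were called. At an unadjusted p below 0.05 there were 4 of the 9, against 9.89% of all genes tested, and those 4 were the 3 subunits of complex IV and mt-Cytb. DESeq2 called 1 of the 9, mt-Cytb, and limma-voom called none. Of the 9 log2 fold changes 8 were above 0, against 52.0% of all genes, and their median was 0.20 where that of all genes was 0.02.

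mt-Cytb had the largest difference of the 9 in responsive cells. Control sums ran from 1947 to 2970 CPM with a median of 2359, and E2 sums ran from 2601 to 5449 CPM with a median of 3191. Of the 9 E2 sums 7 lay above every control sum, and all 9 lay above the control median, so the groups overlapped only at their edge. Full separation, with every E2 sum above every control sum, was seen for 0.273% of genes and was not reached by mt-Cytb here. No share over all genes was determined for partial separation, here or for the genes below. The log2 fold change was 0.49 ± 0.12 (SE), a 1.41-fold level, with an adjusted p of 0.0265 by edgeR's quasi-likelihood test, so that it passed on p, as did 1.42% of all genes, and stood just below the threshold on fold. Without column 15 it was 0.39 with an adjusted p of 0.00601 by edgeR. The fold crossed the threshold, and mt-Cytb was called, with DESeq2 (0.50, adjusted p = 0.00515), with RLE size factors in edgeR (0.50), with the labels for 3 clusters (0.50) and with reads per cell as a covariate (0.62).

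The mRNAs of complex IV stood higher by smaller amounts. mt-Co3 had 5100 to 7287 CPM in control sums (median 6530) and 6441 to 8852 in E2 sums (median 7314), and 5 E2 sums lay above every control sum. Its log2 fold change was 0.20 ± 0.09 (SE; edgeR adjusted p = 0.395). mt-Co2 had 2822 to 5452 CPM in control sums and 3943 to 5429 in E2 sums, with no E2 sum above every control sum and a log2 fold change of 0.25 ± 0.11 (edgeR adjusted p = 0.448). mt-Co1 had a log2 fold change of 0.25 ± 0.12 (edgeR adjusted p = 0.488). Without column 15 the fold changes of mt-Co3, mt-Co2 and mt-Co1 were 0.22, 0.23 and 0.27, with edgeR adjusted p of 0.0972 to 0.383. The copy Gm29216 had 0.24 ± 0.10 (edgeR adjusted p = 0.395), with control sums of 7828 to 11590 CPM and E2 sums of 7598 to 14356 CPM.

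Those of complex I and of ATP synthase lay closer to 0. mt-Nd1 had a log2 fold change of 0.22 ± 0.12 (SE), mt-Nd5 of 0.16 ± 0.13, mt-Nd4 of 0.09 ± 0.12 and mt-Atp6 of 0.09 ± 0.13, with edgeR adjusted p between 0.597 and 0.913. mt-Nd2 had -0.01 ± 0.14 (edgeR adjusted p = 0.994), with control sums of 356 to 632 CPM and E2 sums of 322 to 644 CPM. None of these differences was larger than the spread between libraries by the call rule. Without column 15, where mt-Atp6 was low, mt-Atp6 stood at 0.17, and mt-Nd1, mt-Nd5, mt-Nd4 and mt-Nd2 stood at 0.26, 0.18, 0.13 and 0.03, with edgeR adjusted p of 0.322 to 0.985 over these 5. Of the 4 genes outside the 9, mt-Nd6, which lies on the opposite strand, had a log2 fold change of 0.29 ± 0.12 (edgeR adjusted p = 0.374). mt-Nd6 (chrM:13552-14070) overlaps the 3′ end of mt-Nd5 (chrM:11742-13565). Whether reads of one were placed on the other was not tested, which limits both. mt-Nd4l had 0.72 ± 0.37, mt-Nd3 -0.12 ± 0.33 and mt-Atp8 -0.16 ± 0.29, with edgeR adjusted p of 0.557 to 0.96.

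The same comparison in cluster 1 called 2 of the 9, mt-Cytb and mt-Co2, both higher with E2, in a test of 8340 genes that called 7 in all (0.0839%) and 3 of them higher (0.036%). All 9 log2 fold changes were above 0, against 46.4% of all genes tested, and their median was 0.47 where that of all genes was -0.06. At an unadjusted p below 0.05 there were 5 of the 9, against 7.46% of all genes. DESeq2 and limma-voom each called 2 of the 9. The size of these folds depended on the scaling: with RLE size factors the median of all genes moved from -0.06 to 0.05, and mt-Cytb then stood at 1.01 and mt-Co2 at 0.95.

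mt-Cytb ran from 2349 to 3698 CPM in the 10 control sums of cluster 1 (median 2852) and from 3722 to 9278 CPM in the 7 E2 sums (median 4510). Every E2 sum lay above every control sum, which was so for 0.024% of the genes tested. The log2 fold change was 0.83 ± 0.16 (SE), a 1.78-fold level, with an adjusted p of 0.0415 by edgeR's quasi-likelihood test. mt-Co2 ran from 3557 to 5456 CPM in control sums (median 4456) and from 4328 to 11951 CPM in E2 sums (median 6789), and 6 of the 7 E2 sums lay above every control sum. Its log2 fold change was 0.79 ± 0.16 (SE), a 1.73-fold level, with an adjusted p of 0.0415 by edgeR. Without column 15 both were still called, mt-Cytb at 0.63 and mt-Co2 at 0.64, each with an adjusted p of 0.0352 by edgeR.

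These calls were close to the threshold. Leaving out any 1 of the 10 control libraries, or the E2 library of column 11, 16, 19 or 20, left 0 of the 9 called, with edgeR adjusted p of up to 0.106, while the log2 fold changes stayed between 0.63 and 0.90 for mt-Cytb and between 0.64 and 0.89 for mt-Co2. Over the whole table, leaving out a control library left 3 to 5 genes called, 0 of them higher. Leaving out column 11, 16, 19 or 20 left 1, 7, 1 and 3 genes called. With the mean reads per cell of a sum as a covariate, the fold changes of mt-Cytb and mt-Co2 were 0.68 and 0.64. edgeR then called none of the 9 and 0 of all 8340 genes, and the adjusted p of both was 1.0. That fit gives no background to set the 9 against. Reads per cell were lower in the E2 cells of this cluster than in its control cells, 87632 against 112126 at the median, and the part of that difference in the result was not tested beyond these fits.

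The other members of cluster 1 did not pass. mt-Co3 ran from 5242 to 9518 CPM in control and from 8093 to 13000 CPM in E2 sums, with 4 of 7 E2 sums above every control sum and a log2 fold change of 0.49 ± 0.13 (SE; edgeR adjusted p = 0.22). mt-Nd1 had 0.48 ± 0.22, mt-Nd2 0.47 ± 0.23, mt-Atp6 0.39 ± 0.18, mt-Nd5 0.34 ± 0.26, and mt-Nd4 and mt-Co1 0.21 each, with edgeR adjusted p from 0.633 to 0.881. Gm29216 had 0.42 ± 0.13 (edgeR adjusted p = 0.327). mt-Nd6 had 0.71 ± 0.20 (edgeR adjusted p = 0.265), with 6 of 7 E2 sums above every control sum. mt-Nd3 had 0.36 ± 0.46, mt-Atp8 -0.00099 ± 0.52 and mt-Nd4l -0.79 ± 0.80, with edgeR adjusted p of 0.922 to 1. Without column 15, mt-Nd1 stood at 0.61, mt-Co3 at 0.52, mt-Atp6 at 0.51, mt-Nd2 at 0.39, mt-Nd4 at 0.26, mt-Nd5 at 0.23 and mt-Co1 at 0.19, with edgeR adjusted p of 0.116 to 0.987.

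**Figure D3:**
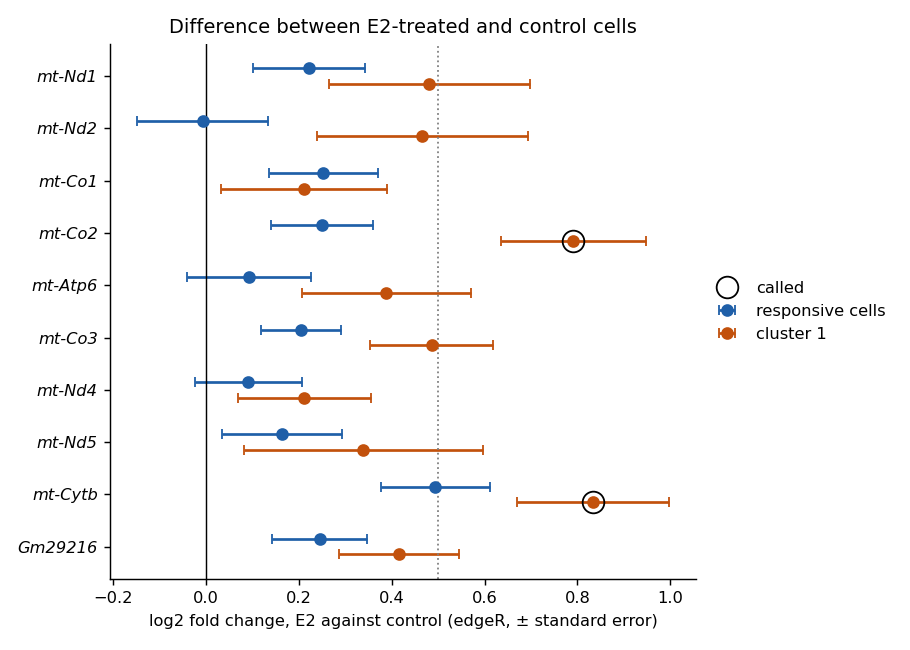
Log2 fold change of E2 against control, with the standard error from edgeR, for each of the 9 mRNAs and Gm29216 in responsive cells and in cluster 1. The dotted line marks the threshold of 0.5 and rings mark the genes that were called, mt-Cytb at 0.83 and mt-Co2 at 0.79 in cluster 1.

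Whether E2 acted differently in the clusters was tested by an interaction term over the sums of both. None of the 9 was called, where 21 of 11398 genes (0.184%) were, and the lowest edgeR adjusted p of the 9 was 0.297, for mt-Co2 with a difference of 0.49 ± 0.19 (SE) on the log2 scale. At an unadjusted p below 0.05 there was 1 of the 9, against 10.9% of all genes, and DESeq2 and limma-voom called 0. Of the 9 differences 8 were above 0, against 41.1% of all genes. mt-Cytb had an interaction of 0.29 ± 0.21 (edgeR adjusted p = 0.668). Without column 15 these were 0.37 for mt-Co2 (edgeR adjusted p = 0.43) and 0.19 for mt-Cytb (edgeR adjusted p = 0.725). Both cluster sums of a column come from the same library, and with the library as a block edgeR called 0 of the 11398 genes, with 902 at an unadjusted p below 0.05, so that fit gives no background to set the 9 against. The larger fold changes in cluster 1 were therefore not shown to differ from those in responsive cells. Over all cells of a library, without the clusters, 0 of the 9 were called against 1.62% of 10945 genes, 3 of the 9 had an unadjusted p below 0.05 against 11.8% of all genes, and mt-Cytb again passed on p alone (0.48 ± 0.11, edgeR adjusted p = 0.026), as 1.68% of genes did. All 9 fold changes over all cells were above 0, against 52.0% of genes. Without column 15 mt-Cytb stood at 0.38 over all cells (edgeR adjusted p = 0.00585) and the other 8 between 0.13 and 0.29. DESeq2 and limma-voom also called 0 over all cells.

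The share of a cell's reads on the 9 mRNAs sums up these levels, and it is described without a test. Over sums, it was 2.08% ± 0.26 (SD, n = 10) in responsive control cells and 2.37% ± 0.19 (n = 9) in responsive E2-treated cells. In cluster 1 it was 2.50% ± 0.34 (n = 10) in control and 3.44% ± 0.62 (n = 7) in E2-treated cells, and the lowest E2 sum of cluster 1, at 2.98%, lay above its highest control sum at 2.90%. Without column 15 the E2 means were 2.38% and 3.49%. With the reads of near-identical copies added, the 4 means were 3.01%, 3.45%, 3.82% and 5.14%, in the same order.

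Single cells varied far more than sums. The share ran from 0.0146% to 6.80% among responsive control cells, from 0.726% to 6.27% among responsive E2-treated cells, from 0.695% to 5.57% among cluster 1 control cells and from 1.44% to 6.78% among cluster 1 E2-treated cells. The cell at 0.0146% had 194317 reads and 4931 genes with a read, and with the copies added its share was still only 0.0232%. The next lowest of the 589 cells had 0.695%.

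Reads per cell moved with the share among responsive cells more than in cluster 1. Spearman's rho across cells was -0.17 in 203 responsive control cells, -0.29 in 218 responsive E2-treated cells, -0.03 in 126 cluster 1 control cells and -0.04 in 42 cluster 1 E2-treated cells. Cells of a library share its preparation, and these values are descriptions only. When all cells were split into 3 bins of equal number by reads, E2-treated cells had the higher median in each bin of either cluster. Below 102168 reads, the median share was 2.24% in responsive control and 2.51% in responsive E2-treated cells, and 2.32% and 3.49% in cluster 1. From there to 143528 reads the medians were 2.00% and 2.25% in responsive cells and 2.40% and 3.35% in cluster 1. Above 143528 reads they were 1.91% and 2.21% in responsive cells and 2.45% and 3.22% in cluster 1, the last from only 4 cells. After each cell was thinned to 20000 reads the 4 means over sums were 2.14%, 2.46%, 2.49% and 3.44%.

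**Figure D4:**
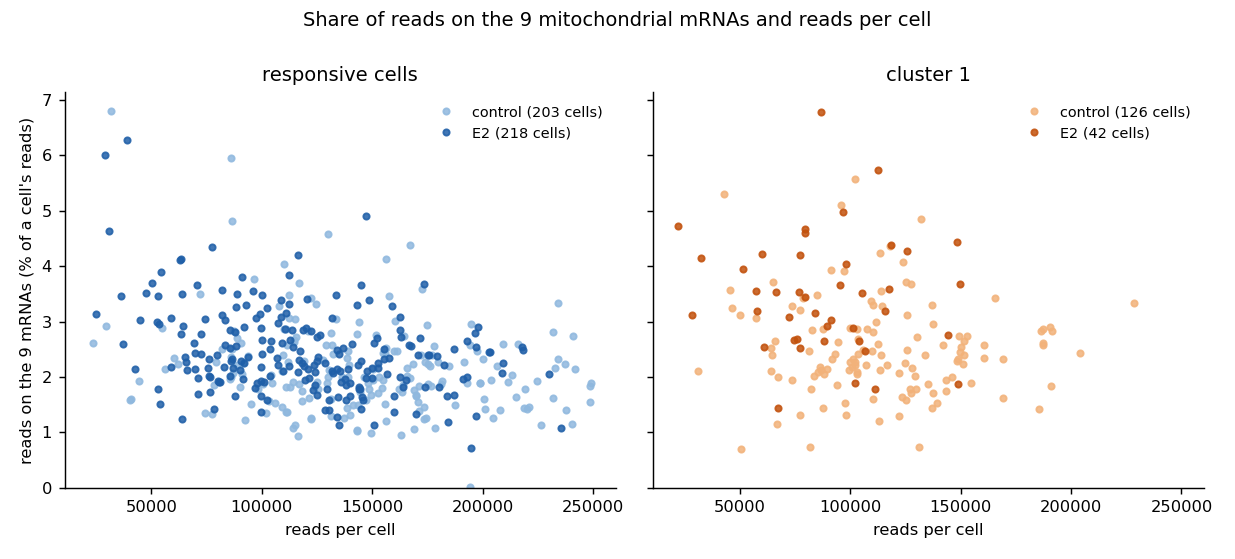
Percent of a cell's reads on the 9 mRNAs against its number of reads, for responsive cells and for cluster 1, with control and E2-treated cells in lighter and darker points. Each point is 1 cell, the spread of cells within a group is wider than the distance between the medians of the groups, and 1 responsive control cell lies at 0.0146%.

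Cluster 1 and responsive cells were compared within libraries, as a description, because the clusters were made from the expression of these same cells. Over 17 libraries with sums of both clusters, 8 of the 9 median log2 differences of cluster 1 minus responsive were above 0, against 31.8% of 11398 genes, and their median was 0.21 (0.18 without column 15), where that of all genes was -0.27. Values over all genes were taken with a pseudocount of 1 CPM, those of the 9 without, and include genes with few reads. Cluster 1 sums held fewer reads, with medians of 1388954 in control and 526384 in E2 sums, against 2806292 and 3091523 in responsive sums. The shares over all genes are thus not a matched background for abundant mRNAs. Only 5 of the 9 medians were above 0 after thinning to 20000 reads per cell, with a median of 0.14, and 5 with cells of 50000 to 150000 reads, with 0.21. In both settings mt-Atp6, mt-Nd4, mt-Nd5 and mt-Nd2 lay below 0, from -0.02 to -0.11. With labels for 3 clusters 8 were above 0, with a median of 0.10. mt-Cytb was higher in cluster 1 in 16 of 17 libraries, with a median difference of 0.39, and mt-Co3 in 15 of 17, with 0.29. mt-Co2 and mt-Nd1 were higher in 14 of 17 libraries (0.27 and 0.22), and 3.98% of all genes were higher in at least 14. mt-Co1 was higher in 11 libraries (0.21), while Gm29216 was higher in all 17, as were 0.465% of genes, with a median of 0.41 and a range of 0.14 to 1.00.

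The other members had smaller differences, and those of mt-Nd4, mt-Nd5 and mt-Atp6 changed sign in the settings on reads per cell. mt-Nd4 (0.06), mt-Nd5 (0.05) and mt-Atp6 (0.01) had medians near 0, and mt-Nd2 stood at -0.10 and was higher in cluster 1 in only 6 of 17 libraries. Among control libraries alone, mt-Nd2 was lower in cluster 1 in 8 of 10, with a median of -0.32. The 4 genes outside the 9 went both ways. mt-Nd6, which overlaps the 3′ end of mt-Nd5, had a median difference of 0.69 and was higher in cluster 1 in 16 of 17 libraries. mt-Atp8 had 0.81 and was higher in 12. mt-Nd3 had -0.11 and was higher in 6, and mt-Nd4l had -0.35 and was higher in 4, where libraries with a sum at 0 were left out of the median.

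**Figure D5:**
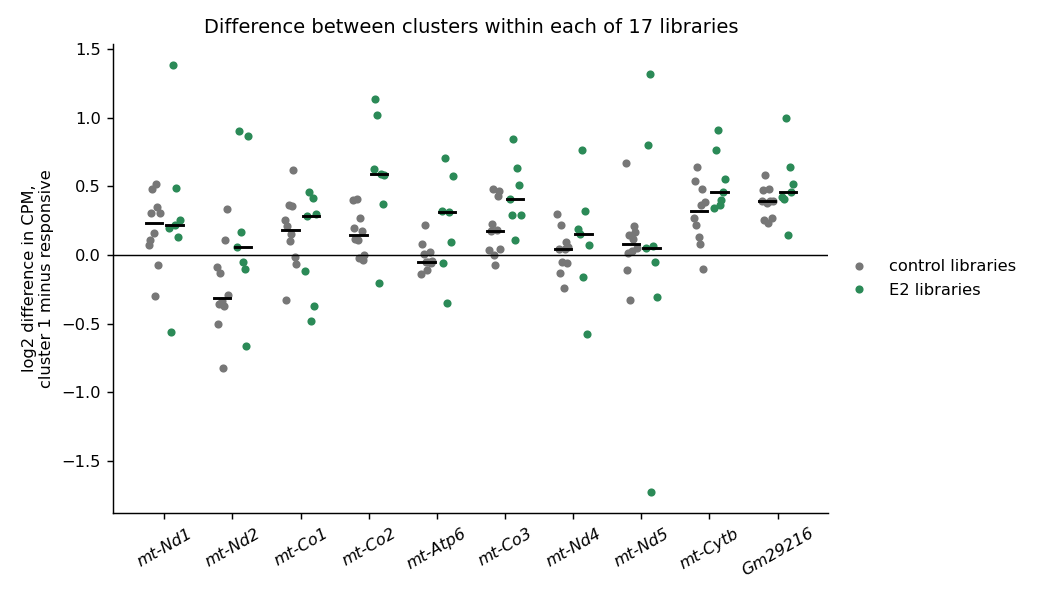
Difference between clusters within each library, as log2 CPM in cluster 1 minus log2 CPM in responsive cells, for the 9 mRNAs and Gm29216, in 10 control and 7 E2 libraries. Points are libraries and bars are medians. For Gm29216 all 17 points lie above 0, and for mt-Nd2 the control median is -0.32.

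The make-up of the reads of the 9 was described next, which does not depend on their summed share. mt-Co3 took 30.3% of the reads of the 9 in responsive control sums on average, mt-Co2 18.6%, mt-Nd4 15.2%, mt-Cytb 11.2%, mt-Atp6 11.0%, mt-Nd1 4.62%, mt-Nd5 3.72%, mt-Co1 3.14% and mt-Nd2 2.23%. The part of mt-Cytb had a median of 11.2% in responsive control sums and ran from 11.8% to 21.9% in E2 sums, with a median of 12.7%, and 8 of 9 E2 sums lay above every control sum. The value of 21.9% was that of column 15, and the other 8 reached at most 13.3%, with 7 of them above every control sum. In cluster 1 it was 10.1% to 13.8% in control and 12.2% to 24.5% in E2 sums, with 3 of 7 above every control sum. The highest was again column 15, and the other 6 reached at most 15.7%, with 2 of them above every control sum. mt-Co2 made up a median of 18.8% in cluster 1 control sums and 16.5% to 31.6% in E2 sums, with 5 of 7 above every control sum. The value of 31.6% was that of column 15, and the other 6 reached at most 22.8%, with 4 above every control sum. The part of mt-Nd4 was lower with E2 in cluster 1, where all 7 E2 sums, at 7.84% to 13.7%, lay below the control median of 13.8%. Column 15 was lowest, and the other 6 had at least 8.98% of mt-Nd4. Its level was not lower there, at 3304 ± 429 CPM in control (SD, n = 10) and 3709 ± 866 CPM in E2 sums (n = 7). The parts share 1 total, so higher parts of some of the 9 lower those of others.

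Across cells of a group, the 36 pairs of the 9 mRNAs had Spearman's rho of 0.05 to 0.56 between their shares of reads, as the median over the 4 groups. The highest was that of mt-Co2 and mt-Co3, at 0.56, and the next that of mt-Atp6 and mt-Nd4, at 0.55. Gm29216 had 0.62 with mt-Co3, 0.54 with mt-Co2, 0.53 with mt-Nd4 and 0.19 with mt-Co1. With the other members, mt-Co1 itself had 0.05 to 0.24. All values share the totals of the cells.

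None of the nuclear-encoded partners of these mRNAs was called with E2. edgeR called 1.37% of all genes in responsive cells and 0.0839% in cluster 1, so lists of this size would hold few calls or none at those shares. Of 82 listed nuclear gene names of complexes I to V, 79 were tested in responsive cells, edgeR called 0, and 8 had an unadjusted p below 0.05, 6 of them higher, which is near the 9.89% of all genes. The list holds more than 1 name for some genes of ATP synthase. It also counts Atpif1, an inhibitor of ATP synthase and not a subunit, which is among those 8. DESeq2 and limma-voom called 0. Of the 79 log2 fold changes 56 were above 0, against 52.0% of all genes, and their median was 0.08 against 0.02 for all genes. In cluster 1 edgeR, DESeq2 and limma-voom each called 0 of 79, 3 had an unadjusted p below 0.05 against 7.46% of all genes, 42 were above 0 against 46.4%, and the median was 0.04 against -0.06 for all genes. By complex, the medians in responsive cells were 0.07 for complex I (36 genes), 0.40 for complex II (4 genes, with no mitochondrial subunit), 0.22 for complex III (9 genes), 0.06 for complex IV (12 genes) and 0.03 for ATP synthase (18 genes). In cluster 1 they were -0.03, -0.14, 0.12, 0.11 and -0.04.

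Genes that make, translate or maintain mitochondrial RNA were likewise not called by edgeR, beside the same low shares of called genes over the whole table. In responsive cells edgeR called 0 of 14 genes of mitochondrial DNA upkeep and transcription, 0 of 20 of RNA processing, 0 of 12 translation factors, 0 of 79 proteins of the mitochondrial ribosome, 0 of 11 regulators of biogenesis, 0 of 13 of the mitochondrial stress response and 0 of 11 of mitophagy and dynamics. Their numbers at an unadjusted p below 0.05 were 3, 1, 2, 7, 2, 2 and 0, where 9.89% of all genes had one, limma-voom called 0 in each, and DESeq2 called 1, Mrpl17 of the ribosome. In cluster 1 edgeR, DESeq2 and limma-voom called 0 in each of these lists, with 0, 1, 0, 1, 0, 1 and 1 at an unadjusted p below 0.05, where 7.46% of all genes had one. The medians in responsive cells were 0.30, -0.12, 0.18, 0.05, 0.24, -0.12 and 0.13 on the log2 scale, and in cluster 1 they were -0.15, -0.00, -0.43, 0.09, -0.02, -0.10 and 0.16. Of 4 tested copies of mitochondrial genes in responsive cells and 2 in cluster 1, edgeR, DESeq2 and limma-voom called 0, and Gm29216 alone had an unadjusted p below 0.05 in either. Of 5 nuclear RNAs listed as signs of damaged cells, 0 were measured.

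Markers of other cell types were read at low levels apart from those of stromal fibroblasts. Of 10 fibroblast markers 7 were measured, with summed levels of 2032 to 2403 CPM in responsive control, 1668 to 4263 in responsive E2, 2874 to 4659 in cluster 1 control and 2736 to 8569 CPM in cluster 1 E2 sums. In responsive cells with E2, Thy1, a cell surface protein of fibroblasts, fell by 2.78 on the log2 scale (edgeR adjusted p = 2.38e-06), and Krt19, a keratin of simple epithelia, rose by 0.62 (edgeR adjusted p = 0.00973). Krt19 was the only called gene of 10 OSE markers tested by edgeR, and DESeq2 also called Krt8. Of these 10, 7 had an unadjusted p below 0.05, 2 with higher and 5 with lower levels, only 3 of the 10 fold changes were above 0, and the summed level of OSE markers had a median of 6551 CPM in control and 5721 CPM in E2 sums. Their part in the levels of the mitochondrial mRNAs was not tested. Of 8 endothelial markers 4 were measured, at 314 to 795 CPM in sum, without Cdh5. Granulosa markers (2 of 8 measured, without Foxl2) reached 204 CPM, theca markers (3 of 6, without Cyp17a1) 647 CPM, leukocyte markers (5 of 8) 135 CPM, and markers of muscle cells and pericytes (5 of 8) 78.7 CPM, except for 1 cluster 1 control sum of 8 cells at 1425 CPM. Theca medians were 197 (control) and 256 CPM (E2) in cluster 1, against 40.3 and 40.3 in responsive sums. Granulosa medians were 57.8 and 44.6 CPM against 17.7 and 17.3. Endothelial, leukocyte and muscle markers had lower medians in cluster 1 than in responsive sums of the same condition. In cluster 1 E2 sums Cyp11a1, Cd3e, Acta2, Cspg4 and Des stood at 0. edgeR called none of the tested markers in cluster 1, with 1 of them at an unadjusted p below 0.05, Dcn of the fibroblast list, and limma-voom and DESeq2 called none there.

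Over the 36 sums of both clusters, the genes whose log2 CPM followed the mean of the 9 most closely, among 1917 candidates above 100 CPM, were Ubxn1 (Pearson's r = 0.61), Cyb5a (0.57), Gm20594 (0.54), Uqcrb (0.52) and Mtpn (0.48). Cyb5a codes for cytochrome b5, an electron carrier of the endoplasmic reticulum, and Uqcrb for a nuclear subunit of complex III. Cyb5a had means of 390, 531, 496 and 850 CPM in responsive control, responsive E2, cluster 1 control and cluster 1 E2 sums, and Uqcrb had 405, 484, 428 and 606 CPM. Gm29216, which was not a candidate, had r = 0.72. Sums of 1 library share its preparation and sums of a group share its cells, so these values are given as descriptions, without p.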

How the data were processed

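Reads of 20 libraries of single mouse OSE cells had been assigned to capture sites, quantified per transcript with kallisto (0.44.0 per the submitters' processing notes, which name GRCm38) and summed to genes with tximport. The authors deposited these estimated counts per gene and cell without normalization, after their filters on cells and genes. There are no molecular identifiers. The metadata deposited by the authors gave cluster labels, counts of detected genes and the percent of mitochondrial reads of each cell. The authors also deposited imputed log values, scaled by scran and smoothed over similar cells with MAGIC. Their base is not stated and was taken as log2, and these deposited values served as an alternative only.

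Columns of the chip were the samples, grouped by their labels. Estimated counts were summed per library and cluster (at least 3 cells) and rounded to whole numbers. The main test was the quasi-likelihood test of edgeR 4.0.16 (R 4.3.3), after TMM scaling and filterByExpr, with Benjamini-Hochberg adjustment over all genes tested, first for E2 against control within each cluster, then for the interaction and over all cells. Called genes have an adjusted p under 0.05 and a log2 fold change beyond 0.5 in either direction. Standard errors were derived from the fold change and the F statistic. The fits were tested on simulated data. Differences between clusters and shares of reads were described without a test, and a group's spread is given as SD over sums. Depth was 3867791 to 5078340 reads per control and 2693258 to 4037847 per E2 library. p-values measure the spread between libraries of 1 suspension per condition.

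Alternatives were DESeq2 1.42.0, limma-voom (limma 3.58.1), no filter on genes, cells thinned to 20000 reads, cells of 50000 to 150000 reads, reads per cell as a covariate, scaling without mitochondrial genes, without TMM or with RLE, cells weighted equally (pseudocount 1), copies added, at least 5 cells per sum, labels for 3 clusters, imputed values, the library as a block and leaving out each library. Leaving out column 15 in the interaction, over all cells, between clusters and for shares was added after seeing the data. Symbols, positions and sequences were matched by Ensembl identifier in GENCODE release 21 of GRCm38 (14135 of 14299 genes had a symbol), and copies were found with BLAST 2.17.0 (at least 200 aligned bases, at least 95% identity). The genes, lists and tests were chosen with earlier results of these data known. Named genes were the 9, other mitochondrial genes and their copies, list members called for E2 in responsive cells and the 5 genes of the most similar pattern. Mrpl17, Krt8 and Dcn, the markers named as measured or not, and the values of column 15 were chosen after they were seen.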

Additional observations from a re-analysis of the deposited data

Results flagged for a closer look

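Among 36 groups of sums, those of the 9 mRNAs in 2 clusters and 2 conditions, chance would set about 1 in 20 apart by the test used for outlying sums (Dixon's), and 2 were. Both were mt-Cytb in the E2 library of column 15. In responsive cells that sum had 5449 CPM from 24 cells, and the nearest of the other 8 had 3562 CPM. In cluster 1 it had 9278 CPM from 3 cells, and the nearest of the other 6 had 5910 CPM. The same library differed more than 2-fold from the others in 639 of 1816 genes above 100 CPM.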

How the results depend on the processing

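Over 45 results and 947 alternative values, 825 kept their direction and their side of the threshold or stayed within the spread. Of the 9 mRNAs, responsive cells had 1 called in place of 0, mt-Cytb, with DESeq2, reads per cell as a covariate, RLE size factors and labels for 3 clusters, and over all cells 1 was called with the covariate (mt-Cytb at 0.60). With cells of 50000 to 150000 reads mt-Cytb in responsive cells stood at 0.57, with an edgeR adjusted p of 0.245. In cluster 1, 0 were called in place of 2 without a filter on genes (14155 tested), with cells of 50000 to 150000 reads, with the covariate, without TMM and with imputed values, and edgeR or limma adjusted p of mt-Cytb and mt-Co2 was 0.0523 or higher in each. The whole table held 1, 1, 0, 4 and 0 called genes in these settings, in the same order. DESeq2 called 52 genes of the table in cluster 1 where edgeR called 7, and 234 in responsive cells where edgeR called 141. Leaving out 1 library gave 0 to 1 called in responsive cells, where mt-Cytb ran from 0.39 to 0.54, and 0 to 2 in cluster 1. The edgeR adjusted p of mt-Cytb in responsive cells passed 0.05 when control library 1, 2, 3 or 4 was left out, and reached 0.0577. For the interaction 0 were called in every setting.

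Where a sign turned, the value under the alternative lay between -0.18 and 0.11 on the log2 scale. In responsive cells mt-Nd2 stood at 0.020 after thinning and 0.058 with imputed values, and at -0.073 to 0.050 as libraries were left out, and mt-Atp6 stood at -0.00499 with cells of 50000 to 150000 reads and at -0.049 with the covariate. With imputed values in cluster 1, mt-Nd1 and mt-Nd5 stood at -0.037, mt-Co1 at -0.020, mt-Nd4 at -0.018, mt-Atp6 at -0.013, mt-Nd2 at -0.00117 and mt-Co3 at -0.00088. The interaction of mt-Co1 was 0.093 with DESeq2, 0.098 with RLE and 0.11 with copies added, that of mt-Nd4 was -0.00174 after thinning, and that of mt-Nd5 was -0.13 with limma-voom, -0.15 after thinning, -0.013 with cells of 50000 to 150000 reads, -0.18 with cells weighted equally and -0.057 with the library as a replicate block. Over all cells with the covariate, mt-Nd2 stood at -0.10 and mt-Atp6 at -0.037. The cause of these shifts was not tested. Shares of reads were 3.01%, 3.45%, 3.82% and 5.14% with copies added, in responsive control, responsive E2, cluster 1 control and cluster 1 E2 sums, and 2.56% in responsive E2-treated cells by the percent in the metadata.

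No paired analysis was possible because control and E2 cells lay in different columns of the chip, which share no number. In the interaction the block of libraries called 0 of the 9 and 0 of all 11398 genes, where the fit without it called 21, so it says nothing on the 9 in particular. The E2 sums of cluster 1 held 3 to 9 cells each, which limits every value of that group, and without molecular identifiers the spread includes amplification. Reads shared with Gm29216 limit mt-Co1.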
